A study of Mus musculus with 8 samples.

Results

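The genes described here are 10 transcripts of mast cell proteases and receptors, taken from the count table by gene symbol: Cma1, Mcpt4, Mcpt8, Ctsg, Cpa3, Tpsb2, Tpsab1, Kit, Fcer1a and Ms4a2. All 10 were found among the 54532 genes of the table, each once. The tumors were 4T1-FLuc, a mouse triple-negative breast cancer line carrying firefly luciferase, grown under the skin of female BALB/cJ mice that were 6 weeks old at injection and have a working immune system. The mAb-DXd/IMQ mice received an antibody against CD276 that carries the TOP1 inhibitor DXd and the TLR7/8 agonist IMQ, as 5 tail vein injections of 16 mg/kg spaced 4 days apart. Control mice received saline, although the treatment label of these samples names PBS. Bulk RNA of 4 tumors per group was sequenced at the study's endpoint, with 45019927 to 69582375 counts in the saline tumors and 34591912 to 51625237 in the mAb-DXd/IMQ tumors.

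Mast cells are resident cells of connective tissue and mucosa that arise from bone marrow progenitors under Kit signaling and store proteases in granules. Chymases, tryptases and carboxypeptidase A are released with histamine when antigen crosslinks IgE on the high-affinity receptor, whose alpha and beta chains are encoded by Fcer1a and Ms4a2. Around solid tumors, mast cells are often found in the stroma and at the margin, next to vessels and adipose tissue.

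Cma1, Mcpt4, Cpa3, Tpsb2, Tpsab1, Fcer1a and Ms4a2 were higher in saline tumors 1, 3 and 4 than in every mAb-DXd/IMQ tumor, but not in saline tumor 2. Kit, Mcpt8 and Ctsg did not show this division. The 10 genes summed to 296, 41.7, 216 and 293 CPM (counts scaled to library size with TMM factors) in saline tumors 1 to 4, and to 32.0, 67.0, 35.1 and 59.4 CPM in mAb-DXd/IMQ tumors 1 to 4. Kit and Mcpt8, which other cells share, were 9.61 and 13.7 CPM of this sum in mAb-DXd/IMQ tumor 3. Cma1, Mcpt4, Cpa3, Tpsb2 and Tpsab1 alone summed to 272, 21.2, 193 and 263 CPM and to 14.6, 50.5, 10.3 and 39.3 CPM in the same order. Saline tumor 2 therefore lay within the range of the treated tumors, and the other 3 saline tumors lay above all 4 of them. The fold change of each of the 10 genes is given with and without it, and it was singled out after its values were seen. All 10 genes passed the low-count filter, but Ctsg reached the filter's level of 0.209 CPM in 0 of 4 saline tumors and 4 of 4 treated tumors, and Ms4a2 in 4 of 4 saline tumors and 2 of 4 treated tumors. These 2 genes were therefore tested only through the group in which they are high. In bulk RNA, fewer mast cells and less RNA per mast cell cannot be told apart.

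Of the 10 genes, 2 passed both thresholds in edgeR's quasi-likelihood test with Benjamini-Hochberg adjustment over all genes (FDR under 0.05 and absolute log2 fold change above 0.58), against 1.06% of the 18511 genes tested. Cpa3 was lower (0.519% of tested genes were called in this direction) and Ctsg was higher (0.546%). Since Ctsg could be tested only through the treated group, its call is not read against that share, and with a filter of CPM of at least 1 in 4 tumors it was not tested and 1 member, Cpa3, was called. The log2 fold change was negative for 8 of the 10 genes and positive for 2, with a median of -2.45. The median over all tested genes was 0.022, and it is not read against these values, which include Ctsg and Ms4a2. All 10 had an unadjusted p under 0.05 (3503 of the 18511 tested genes), a count not read against that share because it includes Ctsg and Ms4a2. Over all genes, 197 were called, 101 higher and 96 lower, and upper-quartile scaling gave 145 higher and 73 lower. Without saline tumor 2, 6 of the 10 genes were called, 5 lower and 1 higher (0.582% of 19065 genes were called). Since that tumor was singled out by these same genes, nothing is read from this count against that share. The count was 1 without saline tumor 1 or mAb-DXd/IMQ tumor 1, and 0 without any one of saline tumors 3 and 4 and mAb-DXd/IMQ tumors 2, 3 and 4. The number of all called genes was also between 10 and 88 in those 5 fits.

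**Figure D1:**
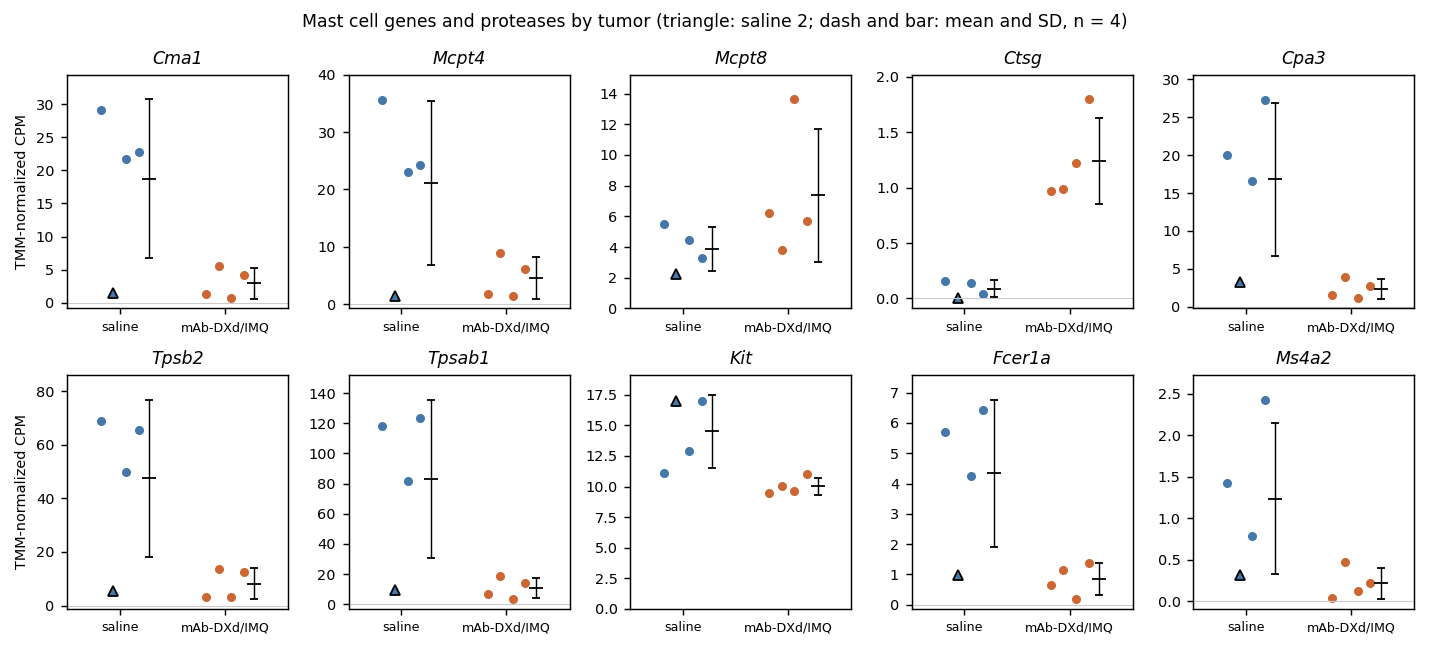
TMM-normalized CPM of the 10 genes in each tumor, on linear axes, with the mean and SD of 4 tumors per group. Saline 2 (triangle) lies among or below the mAb-DXd/IMQ tumors for Cma1, Mcpt4, Cpa3, Tpsb2, Tpsab1, Fcer1a and Ms4a2, but for Kit is level with saline 4 at the top of the 8 tumors.

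Cma1 and Mcpt4 encode chymases, serine proteases that are typical of connective tissue mast cells. Cma1 (ENSMUSG00000022225, chromosome 14, 55941451 to 55944675, minus strand, GRCm38) was at 29.1, 1.53, 21.7 and 22.7 CPM in saline tumors 1 to 4 and at 1.32, 5.55, 0.743 and 4.16 CPM in mAb-DXd/IMQ tumors 1 to 4. Saline tumors 1, 3 and 4 were high and the other 5 tumors low, so the groups overlapped through saline tumor 2 alone. The group levels were 18.8 ± 12.0 CPM (SD, n = 4) and 2.94 ± 2.29 CPM (SD, n = 4), a log2 fold change of -2.68 (SE 0.79, edgeR adjusted p = 0.107). Without saline tumor 2 it was -3.06 (SE 0.54, edgeR adjusted p = 0.0401), and over the 20 alternatives tried the adjusted p was between 0.0401 and 0.283.

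Mcpt4 (ENSMUSG00000061068, chromosome 14, 56059629 to 56062313, minus strand) showed the same division of tumors. Its level was 35.7, 1.42, 23.1 and 24.3 CPM in saline tumors 1 to 4 and 1.86, 8.95, 1.44 and 6.07 CPM in mAb-DXd/IMQ tumors 1 to 4. Saline tumor 2 was the lowest of all 8 tumors, and the other saline tumors were above every treated tumor. Its log2 fold change was -2.21 (SE 0.79, edgeR adjusted p = 0.167), and without saline tumor 2 it was -2.60 (SE 0.53, edgeR adjusted p = 0.0602). Mcpt4 was called in 0 of the 20 alternatives, with adjusted p between 0.0602 and 0.375.

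Cpa3 encodes mast cell carboxypeptidase A, a granule enzyme that removes residues from the C-terminal end of peptides. Cpa3 (ENSMUSG00000001865, chromosome 3, 20215620 to 20242181, minus strand) was at 20.1, 3.20, 16.6 and 27.3 CPM in saline tumors 1 to 4 and at 1.61, 3.94, 1.11 and 2.73 CPM in mAb-DXd/IMQ tumors 1 to 4. The groups met only where saline tumor 2 lay below mAb-DXd/IMQ tumor 2. The level fell from 16.8 ± 10.1 CPM (SD, n = 4) to 2.35 ± 1.26 CPM (SD, n = 4), a log2 fold change of -2.84 (SE 0.58, edgeR adjusted p = 0.0433). Leaving out saline tumor 2 gave -3.19 (SE 0.38, edgeR adjusted p = 0.0112). The call was lost without saline tumor 1 (adjusted p = 0.0602), 3 (0.0998) or 4 (0.143), and without mAb-DXd/IMQ tumor 1 (0.0784), 2 (0.0624), 3 (0.0789) or 4 (0.12), while the log2 fold change stayed between -3.22 and -2.49. Over all 20 alternatives, Cpa3 was called in 9, and the adjusted p was between 0.00182 and 0.143.

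Promoters were compared because these members were high and low in the same tumors. RefSeq promoters of GRCm38.p6, from 250 bases before to 50 bases after the start, matched 8 of the 10 genes, with none for Tpsb2 and Tpsab1. They were searched on both strands for the GATA hexamers AGATAA (held by 11.2% of all promoters of this length), AGATAG (held by 8.95%), TGATAA (held by 9.05%) and TGATAG (held by 7.29%). The E-boxes searched were CATGTG (held by 14.2%) and CACGTG (held by 7.15%). A GATA hexamer was found in the promoters of Cma1, Mcpt4, Cpa3, Fcer1a and Ms4a2, and in none of those of Mcpt8, Ctsg and Kit. Of 32851 promoters of this length in the same table, 29.8% held at least 1 such hexamer and 20.4% at least 1 such E-box. The 4 promoters printed here stand for the chymases, carboxypeptidase A and the IgE receptor, all on the minus strand: Cma1 at chr14:55944626-55944925, Mcpt4 at chr14:56062261-56062560, Cpa3 at chr3:20242132-20242431 and Ms4a2 at chr19:11623670-11623969. Capitals mark the GATA hexamers, read on either strand.
Cma1: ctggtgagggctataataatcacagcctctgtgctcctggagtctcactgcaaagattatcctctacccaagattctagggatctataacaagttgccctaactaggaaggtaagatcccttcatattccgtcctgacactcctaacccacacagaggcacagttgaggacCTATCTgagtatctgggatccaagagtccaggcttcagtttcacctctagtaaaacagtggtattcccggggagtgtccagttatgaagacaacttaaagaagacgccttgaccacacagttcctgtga
Mcpt4: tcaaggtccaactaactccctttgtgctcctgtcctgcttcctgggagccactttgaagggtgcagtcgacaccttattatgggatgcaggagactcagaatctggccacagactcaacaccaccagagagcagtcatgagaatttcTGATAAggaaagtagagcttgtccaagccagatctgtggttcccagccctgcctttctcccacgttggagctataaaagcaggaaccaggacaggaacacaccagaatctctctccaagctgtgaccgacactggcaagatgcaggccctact
Cpa3: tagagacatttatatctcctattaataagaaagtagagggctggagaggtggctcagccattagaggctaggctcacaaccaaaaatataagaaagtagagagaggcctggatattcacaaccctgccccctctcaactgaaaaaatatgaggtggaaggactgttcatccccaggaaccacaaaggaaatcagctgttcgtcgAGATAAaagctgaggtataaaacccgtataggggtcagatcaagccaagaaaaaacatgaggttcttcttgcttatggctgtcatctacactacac
Ms4a2: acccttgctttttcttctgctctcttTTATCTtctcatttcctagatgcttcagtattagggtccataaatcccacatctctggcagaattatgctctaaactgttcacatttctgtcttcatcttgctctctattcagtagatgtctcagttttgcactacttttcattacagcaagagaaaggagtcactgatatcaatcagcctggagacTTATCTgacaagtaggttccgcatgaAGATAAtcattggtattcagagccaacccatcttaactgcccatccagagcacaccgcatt
The hexamer began 79 bases before the start in Cma1, 103 in Mcpt4, 46 in Cpa3 and 92 in Fcer1a. Ms4a2 held 3, which began 224, 37 and 11 bases before the start, and 2 or more matches occurred in 7.77% of all promoters. The promoters of Mcpt8 at chr14:56085148-56085447 and Ctsg at chr14:56102525-56102824, also on the minus strand, are shown with E-boxes in capitals, of which Ctsg held 1 and Mcpt8 held 0. Fcer1a, which held a GATA hexamer, also held an E-box, 208 bases before the start.
Mcpt8: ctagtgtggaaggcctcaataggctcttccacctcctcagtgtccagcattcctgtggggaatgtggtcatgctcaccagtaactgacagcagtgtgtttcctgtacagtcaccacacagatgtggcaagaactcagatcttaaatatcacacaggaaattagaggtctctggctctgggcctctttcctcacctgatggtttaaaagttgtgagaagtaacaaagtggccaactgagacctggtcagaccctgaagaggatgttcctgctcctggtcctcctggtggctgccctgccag
Ctsg: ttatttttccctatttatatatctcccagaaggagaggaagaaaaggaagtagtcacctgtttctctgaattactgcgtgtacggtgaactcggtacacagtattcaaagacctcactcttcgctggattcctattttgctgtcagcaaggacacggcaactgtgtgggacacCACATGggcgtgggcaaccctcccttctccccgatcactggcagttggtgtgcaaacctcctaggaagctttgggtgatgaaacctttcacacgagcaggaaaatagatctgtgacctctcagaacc
These matches describe letters only, and binding of any factor was not measured. The search followed the division of tumors seen in these data, and Cma1 and Mcpt4 are chymases of the same gene cluster. Nothing is therefore read from which promoters held a hexamer.

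Tpsb2 and Tpsab1 encode tryptases, trypsin-like proteases that form tetramers on heparin. Tpsb2 (ENSMUSG00000033825, chromosome 17, 25366550 to 25368094, plus strand) was at 68.9, 5.30, 49.9 and 65.7 CPM in saline tumors 1 to 4 and at 3.24, 13.7, 3.39 and 12.5 CPM in mAb-DXd/IMQ tumors 1 to 4. Tpsab1 (ENSMUSG00000024173, chromosome 17, 25343245 to 25345562, minus strand) was at 118, 9.73, 82.0 and 123 CPM in saline tumors 1 to 4 and at 6.60, 18.4, 3.58 and 13.8 CPM in mAb-DXd/IMQ tumors 1 to 4. For both tryptases, saline tumors 1, 3 and 4 were above every treated tumor, whereas saline tumor 2 was below mAb-DXd/IMQ tumors 2 and 4. The log2 fold change was -2.54 for Tpsb2 (SE 0.70, edgeR adjusted p = 0.0900) and -2.98 for Tpsab1 (SE 0.69, edgeR adjusted p = 0.0591). Both were called without saline tumor 2, with -2.91 for Tpsb2 (SE 0.47, edgeR adjusted p = 0.0333) and -3.35 for Tpsab1 (SE 0.44, edgeR adjusted p = 0.0144). The adjusted p was between 0.0292 and 0.246 for Tpsb2 and between 0.00797 and 0.187 for Tpsab1 over the 20 alternatives, of which each tryptase was called in 3. Although the tryptases are paralogs, 100% of the 100-base windows of their annotated transcripts were unique to each gene.

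The receptor genes did not behave alike. Fcer1a, the IgE-binding alpha chain (ENSMUSG00000005339, chromosome 1, 173221284 to 173227214, minus strand), was at 5.72, 0.970, 4.26 and 6.42 CPM in saline tumors 1 to 4 and at 0.639, 1.13, 0.197 and 1.38 CPM in mAb-DXd/IMQ tumors 1 to 4. It shared the division seen for the proteases, with saline tumor 2 inside the treated range. Its log2 fold change was -2.39 (SE 0.62, edgeR adjusted p = 0.077), and -2.72 without saline tumor 2 (SE 0.50, edgeR adjusted p = 0.0448). Fcer1a was called in 3 of the 20 alternatives, with adjusted p between 0.00159 and 0.219.

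Ms4a2, the signal-amplifying beta chain (ENSMUSG00000024680, chromosome 19, 11615523 to 11623719, minus strand), was sparse, with 70, 14, 44 and 166 counts in saline tumors 1 to 4 and 2, 22, 6 and 8 counts in mAb-DXd/IMQ tumors 1 to 4. These counts correspond to 1.42, 0.316, 0.788 and 2.43 CPM and to 0.0413, 0.471, 0.131 and 0.225 CPM. One treated tumor was thus under the floor of 3 counts, and saline tumor 2 was below mAb-DXd/IMQ tumor 2 only. The log2 fold change was -2.51 (SE 0.74, edgeR adjusted p = 0.107), and -2.83 without saline tumor 2 (SE 0.67, edgeR adjusted p = 0.0889). Over the 19 alternatives that could test Ms4a2, the adjusted p was between 0.014 and 0.301, and it was called in 1.

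Kit encodes the receptor for stem cell factor, on which mast cells depend, and is also found on progenitors, melanocytes and mammary epithelium. Kit (ENSMUSG00000005672, chromosome 5, 75574916 to 75656722, plus strand) was at 11.1, 17.0, 12.9 and 17.0 CPM in saline tumors 1 to 4 and at 9.47, 10.1, 9.61 and 11 CPM in mAb-DXd/IMQ tumors 1 to 4. All 4 treated tumors were below every saline tumor. Saline tumor 2, the lowest saline tumor for the 7 mast cell genes above, was level with saline tumor 4 as the highest for Kit. Groups that do not overlap in the lower direction were found for 7.1% of tested genes. The log2 fold change of Kit was -0.53 (SE 0.17, edgeR adjusted p = 0.133), and -0.45 without saline tumor 2 (SE 0.18, edgeR adjusted p = 0.273). It was under the fold threshold in the comparison of all 8 tumors and was called in 0 of the 20 alternatives, with adjusted p between 0.0428 and 0.345.

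Mcpt8 and Ctsg, which lie side by side on chromosome 14, had positive fold changes. Mcpt8 encodes a granzyme-like protease that in mice marks basophils. Mcpt8 (ENSMUSG00000022157, chromosome 14, 56082166 to 56085273, minus strand) was at 5.49, 2.23, 4.46 and 3.29 CPM in saline tumors 1 to 4 and at 6.23, 3.83, 13.7 and 5.71 CPM in mAb-DXd/IMQ tumors 1 to 4. The groups overlapped, since mAb-DXd/IMQ tumor 2 was below saline tumors 1 and 3, and mAb-DXd/IMQ tumor 3 was the highest of the 8. The log2 fold change was 0.93 (SE 0.39, edgeR adjusted p = 0.235), and 0.74 without saline tumor 2 (SE 0.40, edgeR adjusted p = 0.405). Without mAb-DXd/IMQ tumor 3 it was 0.44 (adjusted p = 0.514). It was called in 0 of the 20 alternatives, with adjusted p between 0.121 and 0.514.

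Ctsg encodes cathepsin G, a chymotrypsin-like protease of neutrophil precursors, monocytes and some mast cells. Ctsg (ENSMUSG00000040314, chromosome 14, 56099881 to 56102574, minus strand) had 8, 0, 8 and 3 counts in saline tumors 1 to 4 and 47, 46, 56 and 64 counts in mAb-DXd/IMQ tumors 1 to 4. In CPM these were 0.162, 0, 0.143 and 0.0439 against 0.969, 0.985, 1.22 and 1.80, so that all 4 treated tumors were above every saline tumor. With 0 counts, saline tumor 2 allows up to 0.0677 CPM, a floor of 3 counts that covers counting error only. The level rose from 0.0873 ± 0.078 CPM (SD, n = 4) to 1.24 ± 0.388 CPM (SD, n = 4), a log2 fold change of 3.79 (SE 0.68, edgeR adjusted p = 0.029). Leaving out saline tumor 2 gave 3.42 (SE 0.56, edgeR adjusted p = 0.0345). The call was lost without saline tumor 3 (adjusted p = 0.0793) or 4 (0.119), and without mAb-DXd/IMQ tumor 2 (0.060), 3 (0.0587) or 4 (0.0935). Ctsg was called in 12 of the 19 alternatives that could test it, with log2 fold changes between 3.42 and 4.22 and adjusted p between 5.3e-07 and 0.119.

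For Cma1, Mcpt4, Cpa3, Tpsb2, Tpsab1, Fcer1a and Ms4a2, the groups overlapped through saline tumor 2 alone. With all 8 tumors, 2 of the 10 genes, Kit and Ctsg, had groups without overlap (13.1% of tested genes, and 5.97% in the direction of Ctsg), and nothing is read from these shares for Ctsg, tested only through the treated group. Without saline tumor 2, 8 of the 10 were lower in every treated tumor (8.95% of tested genes), but that tumor was singled out by these same genes, so that nothing is read from this count either. Without it, the saline mean was 24.5 ± 4.04 CPM (SD, n = 3) for Cma1, 27.7 ± 6.94 CPM for Mcpt4, 21.3 ± 5.49 CPM for Cpa3, 61.5 ± 10.1 CPM for Tpsb2 and 108 ± 22.5 CPM for Tpsab1.

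**Figure D2:**
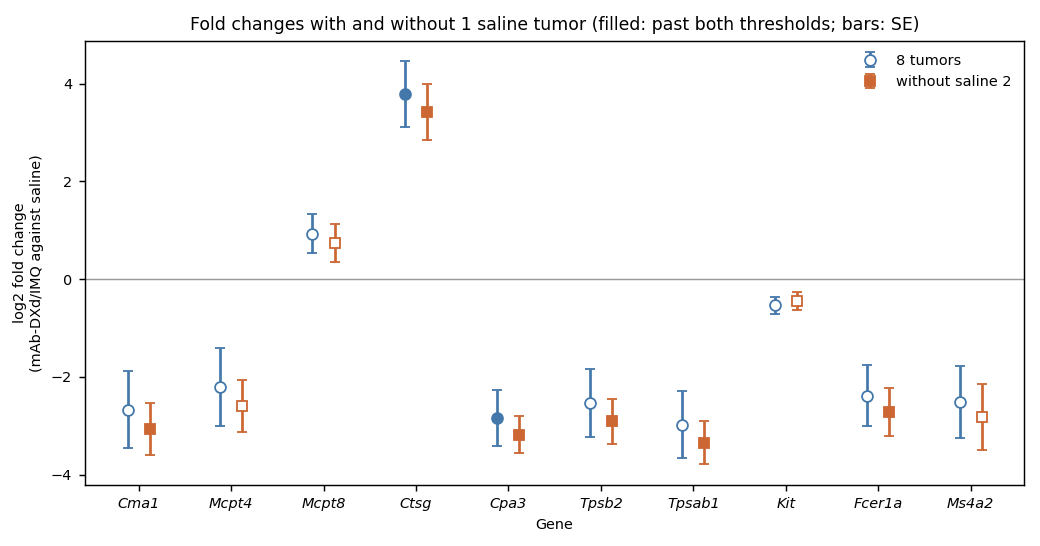
Log2 fold change of each of the 10 genes between mAb-DXd/IMQ and saline tumors, with its SE, from all 8 tumors (circles) and without saline tumor 2 (squares); filled symbols passed both thresholds. Cpa3 and Ctsg were filled in both fits, and Cma1, Tpsb2, Tpsab1 and Fcer1a only without saline tumor 2.

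Levels of different genes were compared per kilobase of gene length (RPKM from TMM-normalized counts). In saline tumors, the mean levels were 43.9 ± 27.1 RPKM for Tpsb2, 39.8 ± 25 for Tpsab1, 19.1 ± 12.9 for Mcpt4, 17.2 ± 11 for Cma1 and 11.1 ± 6.66 for Cpa3 (SD, n = 4). Fcer1a (4.35 ± 2.43 RPKM), Mcpt8 (3.88 ± 1.42), Kit (1.63 ± 0.333), Ms4a2 (0.440 ± 0.325) and Ctsg (0.0846 ± 0.0755) followed. Within this order, the tryptases did not differ from each other beyond the spread between tumors, although Tpsab1 was below Tpsb2 within each of the 4 saline tumors. Cma1, Mcpt4 and Cpa3 overlapped in this spread, which saline tumor 2 widens, and Cpa3 relative to Cma1 was 0.496, 1.50, 0.549 and 0.864 in saline tumors 1 to 4. Without saline tumor 2, the levels were 56.9 ± 9.37 RPKM for Tpsb2, 51.5 ± 10.7 for Tpsab1, 25 ± 6.27 for Mcpt4, 22.5 ± 3.71 for Cma1, 14.1 ± 3.62 for Cpa3 and 5.48 ± 1.10 for Fcer1a (SD, n = 3). Mcpt8 (4.42 ± 1.10 RPKM), Kit (1.53 ± 0.337), Ms4a2 (0.549 ± 0.294) and Ctsg (0.113 ± 0.0615) followed in the same order, and Cpa3 was then below both chymases by more than their SD. In mAb-DXd/IMQ tumors, Tpsb2 (7.59 ± 5.24 RPKM), Mcpt8 (7.37 ± 4.34), Tpsab1 (5.06 ± 3.22) and Mcpt4 (4.13 ± 3.24) were the highest. Cma1 (2.70 ± 2.10 RPKM), Cpa3 (1.55 ± 0.83), Ctsg (1.20 ± 0.375), Kit (1.13 ± 0.077), Fcer1a (0.839 ± 0.527) and Ms4a2 (0.0772 ± 0.0658) were lower.

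The members kept similar proportions to one another in some pairs and not in others. The ratio of Tpsab1 to Tpsb2 in RPKM ran from 0.848 to 0.970 over the saline tumors, saline tumor 2 included, and from 0.546 to 1.05 over the treated ones. The ratio of Mcpt4 to Cma1 was 1.20, 0.911, 1.05 and 1.05 in saline tumors 1 to 4 and 1.38, 1.59, 1.91 and 1.44 in mAb-DXd/IMQ tumors 1 to 4, without overlap between the groups. Saline tumor 2 did not follow the treated tumors in this ratio, although it did in the levels of both genes. Counts of Mcpt4 and Cma1 were low there (63 and 68) and in mAb-DXd/IMQ tumors 1 (90 and 64) and 3 (66 and 34). Counting error in these ratios was not tested. Fcer1a relative to Cpa3 ran from 0.357 to 0.460 over the saline tumors and from 0.268 to 0.768 over the treated ones. Mcpt8 relative to Cpa3 ran from 0.183 to 1.06 over the saline tumors, highest in saline tumor 2, and from 1.48 to 18.7 over the treated ones. Kit relative to Cpa3 was 0.0941, 0.133 and 0.106 in saline tumors 1, 3 and 4, 0.904 in saline tumor 2, and 0.435 to 1.47 over the treated tumors. Of 7 such ratios computed, the groups did not overlap in 2, and no test was made on them.

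Cma1, Mcpt4, Mcpt8 and Ctsg belong to a cluster of serine protease genes on chromosome 14 that also holds the granzymes. Of its 16 genes, 15 were tested, and 6 were called, all higher: Ctsg, Gzme, Gzmd, Gzmg, Gzmf and Gzmc. Of all tested genes, 0.546% were called higher, a share that is not read for Ctsg, and with a filter of CPM of at least 1 in 4 tumors 5 were called, all granzymes. In the deposited order, the chymase end came first, with Cma1, the pseudogene Mcpt-ps1, Cma2, Mcpt1, Mcpt9, Mcpt2 and Mcpt4, and all 7 had a negative log2 fold change, between -2.71 for Mcpt2 and -0.022 for Mcpt-ps1. Mcpt8 and Ctsg came next with the positive values above, followed by the granzymes. Gzme, the granzyme nearest to Ctsg, rose from 11, 8.26, 14.2 and 9.11 CPM in saline tumors 1 to 4 to 62.9, 42.2, 50.6 and 64.9 CPM in mAb-DXd/IMQ tumors 1 to 4 (log2 fold change 2.37, SE 0.20, edgeR adjusted p = 0.00107). The sign thus changed between Mcpt4 and Mcpt8, although neither was called and Mcpt-ps1 (SE 0.58, edgeR adjusted p = 0.989) was near 0, and Gzmb at the far end had 0.52 (SE 0.35, edgeR adjusted p = 0.461). Saline tumor 2, low for the chymases, was also the lowest saline tumor for Ctsg (0 counts), Gzme (8.26 CPM), Gzmc (7.72 CPM) and Gzmb (14.9 CPM), but the highest for Gzmg (8.91 CPM) and Gzmf (7.38 CPM). Without saline tumor 2, 9 genes of the cluster were called, a count not read further because that tumor was singled out by mast cell genes, 6 higher and, among the lower, Cma1, Mcpt1 and Mcpt2. Of the 100-base windows of the Mcpt4 transcripts, 99.9% were unique, with 1 window shared with Cma2, and for Cma1, Mcpt8, Ctsg, Mcpt1 and Mcpt2 all windows were unique.

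**Figure D3:**
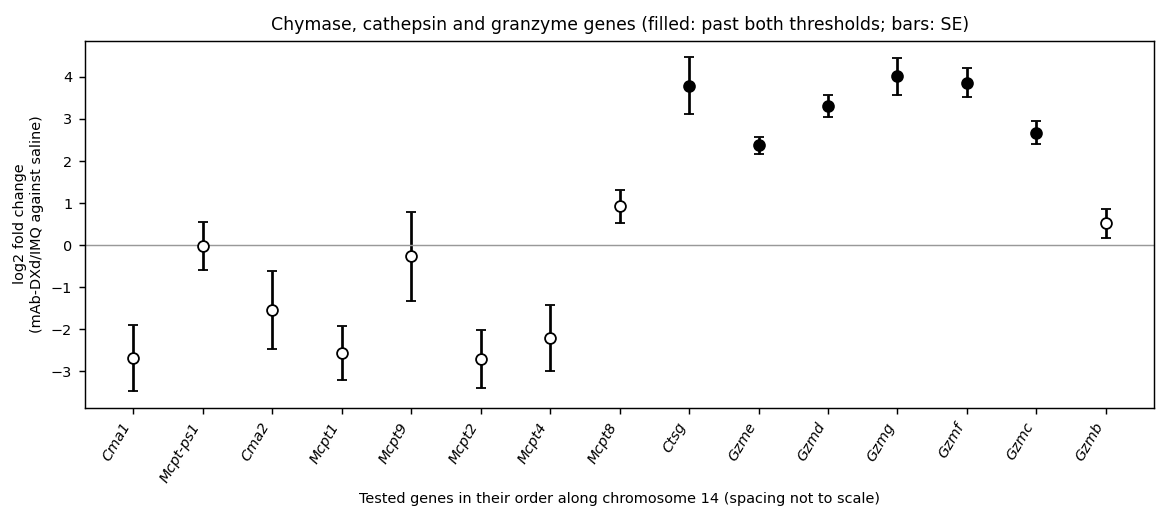
Log2 fold change and SE of the 15 tested genes of the protease cluster on chromosome 14, in their order along the chromosome, with filled points for genes past both thresholds. Cma1 to Mcpt4 had negative values and Mcpt8 to Gzmb positive ones, and only Ctsg and the 5 granzymes from Gzme to Gzmc passed.

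Among other mast cell proteases, Mcpt1 and Mcpt2 were high and low in the same tumors as the chymases, and Mcpt9 and Cma2 were not. Of 6 such genes, 4 were tested, and 0 were called in edgeR's test (2 at an unadjusted p under 0.05), with a median log2 fold change of -2.05. Mcpt2, typical of mucosal mast cells, was at 108, 11.8, 99.7 and 115 CPM in saline tumors 1 to 4 and at 7.41, 25.4, 3.28 and 15.1 CPM in mAb-DXd/IMQ tumors 1 to 4 (log2 fold change -2.71, SE 0.70, edgeR adjusted p = 0.0737). Mcpt1, of the same mast cell type, was at 121, 8.26, 71.9 and 80.8 CPM and at 6.09, 21.7, 8.19 and 11.6 CPM in the same order (-2.57, SE 0.64, edgeR adjusted p = 0.0695). Saline tumor 2 again lay within the treated range for both, and without it both were called, with -3.08 for Mcpt2 (SE 0.50, edgeR adjusted p = 0.0345) and -2.94 for Mcpt1 (SE 0.37, edgeR adjusted p = 0.0118). Mcpt9 had a log2 fold change of -0.26 (SE 1.06, edgeR adjusted p = 0.926) and Cma2 of -1.54 (SE 0.93, edgeR adjusted p = 0.406), each with saline tumor 4 below mAb-DXd/IMQ tumors 2 and 3. Cma2 had -0.595 without saline tumor 1 (edgeR adjusted p = 0.779) and -2.01 without mAb-DXd/IMQ tumor 2 (edgeR adjusted p = 0.385). The adjusted p was between 0.0205 and 0.215 for Mcpt2 and between 0.0118 and 0.238 for Mcpt1 over the 20 alternatives. Transcripts typical of mucosal and of connective tissue mast cells thus varied across the same tumors. Prss34 (8 counts over the saline group, 0 over the treated group) and Tpsg1 (43 and 28) were below the filter.

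Of 12 genes for mediators and granule contents, 0 were called by edgeR (3 at an unadjusted p under 0.05), 9 had a negative and 3 a positive log2 fold change, and the median was -0.18. In the fit without saline tumor 2, 6 were negative and 6 positive, the median was -0.055, and 1 was called. Hdc, which makes histamine, was at 25.6, 1.78, 9.82 and 9.48 CPM in saline tumors 1 to 4 and at 4.19, 4.88, 2.95 and 4.53 CPM in mAb-DXd/IMQ tumors 1 to 4 (log2 fold change -1.50, SE 0.57, edgeR adjusted p = 0.192). It was -1.85 without saline tumor 2 (adjusted p = 0.0465) and -0.77 without saline tumor 1, the highest of the 8 (adjusted p = 0.407). Saline tumor 2 was the lowest of the 8, and over the 20 alternatives the adjusted p of Hdc was between 0.0465 and 0.465. Tph1, the serotonin-synthesis enzyme, had -2.76 (SE 0.74, edgeR adjusted p = 0.0824), and -3.05 without saline tumor 2 (adjusted p = 0.0808, range over its alternatives 0.0315 to 0.215). It reached the filter's level in 4 of 4 saline tumors and 2 of 4 treated tumors, so that, like Ms4a2, it was tested only through the group in which it is high. The granule membrane gene Cd63, which is expressed by many cell types, was at 500 ± 33.2 CPM in saline tumors and at 693 ± 116 CPM in mAb-DXd/IMQ tumors (SD, n = 4 each; log2 fold change 0.47, SE 0.14, edgeR adjusted p = 0.107).

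Genes of signaling downstream of the IgE receptor, which other leukocytes share, had small fold changes. Of 17 genes, 17 were tested and 0 called by edgeR (8 at an unadjusted p under 0.05), with a median of -0.38, and 16 were negative. When saline tumor 2 was left out, 13 were negative, the median was -0.23, and 0 were called. The shared gamma chain Fcer1g was at 46.6, 86.2, 58.4 and 61.4 CPM in saline tumors 1 to 4 and at 57.3, 60.1, 57.9 and 58.9 CPM in mAb-DXd/IMQ tumors 1 to 4. Saline tumor 2, low for Fcer1a and Ms4a2, was the highest for Fcer1g, and the log2 fold change was -0.11 (SE 0.16, edgeR adjusted p = 0.764). The adaptor Lat had the largest absolute value of this list, -0.80 (SE 0.22, edgeR adjusted p = 0.0918), and Syk had -0.40 (SE 0.14, edgeR adjusted p = 0.165). For Lat, Gab2 and Rasgrp4, all 4 treated tumors were below every saline tumor (7.1% of all tested genes).

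Of 16 cytokine and receptor genes, 12 were tested, 1 was called higher and 0 lower (0.546% of all tested genes were called higher), 6 had an unadjusted p under 0.05, and the median was -0.43. The called gene was Tslp, an epithelial cytokine that acts on mast cells and other cells, at 8.88, 12.3, 27.4 and 16.1 CPM in saline tumors 1 to 4 and at 64.5, 78.6, 25.5 and 80.2 CPM in mAb-DXd/IMQ tumors 1 to 4. The groups overlapped, since mAb-DXd/IMQ tumor 3 was below saline tumor 3, and the log2 fold change was 1.94 (SE 0.39, edgeR adjusted p = 0.0429). The Tslp call was kept without mAb-DXd/IMQ tumor 3 (adjusted p = 0.0332). It was lost without saline tumor 1 (0.0602), 2 (0.0857), 3 (0.0657) or 4 (0.143), and without mAb-DXd/IMQ tumor 1 (0.065), 2 (0.0865) or 4 (0.117), and over the 20 alternatives the adjusted p was between 0.00291 and 0.148. The IL-33 receptor Il1rl1 had 18.4, 4.27, 14.2 and 17.9 CPM against 2.97, 7.79, 5.13 and 2.47 CPM (-1.58, SE 0.46, edgeR adjusted p = 0.105). The receptor genes Mrgprb1 and Mrgprb2, of which the latter detects cationic peptides on mast cells, had -2.90 (SE 0.75, edgeR adjusted p = 0.076) and -3.03 (SE 0.90, edgeR adjusted p = 0.110). Mrgprb2 reached the filter's level in 3 of 4 saline tumors and 1 of 4 treated tumors, so that it was tested mainly through the group in which it is high. Its counts were 6, 2, 16 and 0 in mAb-DXd/IMQ tumors 1 to 4. Kitl, which encodes the Kit ligand, had -0.41 (SE 0.24, edgeR adjusted p = 0.373), and Il33 had 0.054 (SE 0.43, edgeR adjusted p = 0.965). Il33 was at 31.4 CPM in saline tumor 2 and 7.08 to 9.23 CPM in the other saline tumors, and without saline tumor 2 its value was 0.83 (adjusted p = 0.0994, range 0.0994 to 0.979). It was negative without saline tumor 1 (-0.17), 3 (-0.14) or 4 (-0.096), or mAb-DXd/IMQ tumor 3 (-0.12). Mrgprb2 had -3.38 without saline tumor 2 (adjusted p = 0.0891, range 0.0123 to 0.301), -2.43 without saline tumor 4 and -4.16 without mAb-DXd/IMQ tumor 3. Without saline tumor 2, Tslp was no longer called (1.83, adjusted p = 0.0857), and Il1rl1 (-1.87, adjusted p = 0.0448, range over its alternatives 0.00622 to 0.283) and Mrgprb1 (-3.28, adjusted p = 0.029, range 0.0194 to 0.233) were. Il3 (4 and 10 counts), Il9 (2 and 3), Il9r (16 and 8) and Hrh4 (20 and 0) were too sparse to test.

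Of 9 transcription factors of the mast cell lineage, 8 were tested and 0 called by edgeR (5 at an unadjusted p under 0.05), 7 with a negative value, and the median was -0.41. Gata2 was at 4.52, 2.19, 4.07 and 5.05 CPM in saline tumors 1 to 4 and at 1.63, 2.81, 2.73 and 2.45 CPM in mAb-DXd/IMQ tumors 1 to 4 (-0.72, SE 0.30, edgeR adjusted p = 0.226), with saline tumor 2 again among the treated tumors and -0.92 without it (adjusted p = 0.135, range over its alternatives 0.131 to 0.47). Gata1 had 36 counts in the saline tumors, 0 of them in saline tumor 2, and 1 count in the treated tumors, and was not tested. Mitf (-0.40, SE 0.15, edgeR adjusted p = 0.187), Runx1 (-0.43, SE 0.11, edgeR adjusted p = 0.0804) and Stat5b (-0.36, SE 0.11, edgeR adjusted p = 0.12) were lower in all 4 treated tumors than in any saline tumor. Such a separation in this direction was found for 7.1% of all tested genes. Over the 5 lists together, 60 genes with 53 tested, 1 was called by edgeR's test (24 at an unadjusted p under 0.05). Of all tested genes, 1.06% were called, and 3503 of 18511 had such a p. The count of 24 is not read against that share, since it includes Tph1 and Mrgprb2. These reached the filter's level in 4 and 3 of 4 saline tumors, but in 2 and 1 of 4 treated tumors. Of the 53, 43 had a negative value (47.4% of all tested genes), a count not read against that share because it also includes Tph1 and Mrgprb2. Groups without overlap in either direction were found for 7 of the 53 and for 13.1% of all tested genes, and nothing is read from this count. The median was -0.40, and DESeq2 called 8 and limma-voom 0. With saline tumor 2 left out, 36 of the 53 were negative, the median was -0.24, and 5 were called, all lower (0.325% of all genes tested in that fit were called lower). That tumor was singled out after its mast cell values were seen, so that nothing is read from this count against that share.

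**Figure D4:**
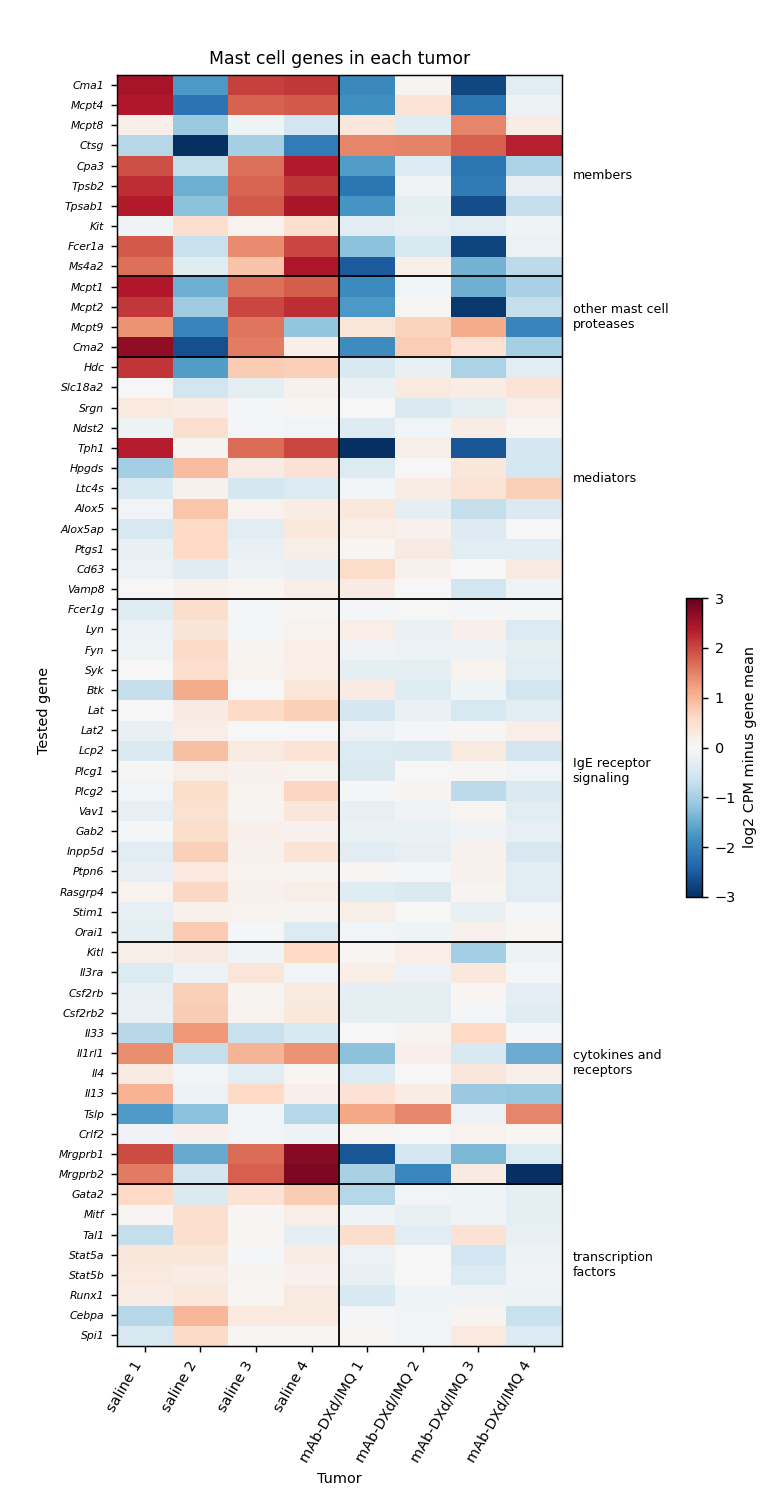
Log2 CPM of each tested gene of the mast cell lists in each tumor, minus the mean of that gene over the 8 tumors (red higher, blue lower, clipped at 3 in either direction). Cma1, Mcpt4, Cpa3, Tpsb2, Tpsab1, Mcpt1, Mcpt2, Fcer1a, Hdc, Tph1, Il1rl1, Mrgprb1 and Mrgprb2 are red in saline tumors 1, 3 and 4, whereas the genes of IgE receptor signaling are paler and mostly red in saline tumor 2.

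Marker lists of other cells and tissues were summed per tumor beside the mast cell genes. Adipocyte markers (5 genes, Cfd the most abundant) summed to 9.87, 0.293, 4.87 and 9.13 CPM in saline tumors 1 to 4 and to 3.94, 6.49, 1.11 and 4.61 CPM in mAb-DXd/IMQ tumors 1 to 4. Saline tumor 2 was thus the lowest of the 8 tumors for adipocyte markers, and its Adipoq, Plin1 and Cidec counts were 0. Skeletal muscle markers (5 genes, Acta1 the most abundant) summed to 393, 37.9, 318 and 174 CPM and to 301, 67.5, 153 and 220 CPM, again lowest in saline tumor 2, but mAb-DXd/IMQ tumors 1 and 4 were above saline tumor 4. Epidermis markers (9 genes, Krt14 the most abundant) summed to 219, 37.5, 152 and 105 CPM and to 219, 546, 225 and 106 CPM. Of the tested genes of these 3 lists (4, 5 and 5), 0 were called by edgeR and 0 had an unadjusted p under 0.05. The part of surrounding tissue in the low mast cell values of saline tumor 2 was not tested.

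Marker lists of leukocytes, endothelium, stroma and tumor cells were summed in the same way. Pan-leukocyte markers (3 genes, Laptm5 the most abundant) summed to 395, 749, 529 and 586 CPM in saline tumors 1 to 4 and to 478, 446, 556 and 405 CPM in mAb-DXd/IMQ tumors 1 to 4, with 0 of 3 called, and Ptprc had a log2 fold change of -0.16 (SE 0.17, edgeR adjusted p = 0.676). Saline tumor 2, low in mast cell proteases, was the highest for leukocyte markers. Endothelial markers (5 genes, Pecam1 the most abundant, 0 called by edgeR, 1 at an unadjusted p under 0.05) summed to 77.5, 191, 134 and 144 CPM in saline tumors 1 to 4 and to 188, 166, 190 and 155 CPM in mAb-DXd/IMQ tumors 1 to 4. Saline tumors 1, 3 and 4, high for the mast cell proteases, were thus the 3 lowest for endothelial markers, all 5 genes had positive log2 fold changes, and the median was 0.56. The part of endothelium in the mast cell values was not tested. Fibroblast markers (7 genes, Col1a1 the most abundant, 0 called) summed to 2095 to 5286 CPM over the saline tumors and 2064 to 5450 CPM over the treated ones. Among them, Pdgfra was lower in all 4 treated tumors than in any saline tumor (-0.48, SE 0.12, edgeR adjusted p = 0.0679), as were 7.1% of all tested genes. Tumor epithelium markers (4 genes, Krt18 the most abundant, 0 called) summed to 1658 to 2278 CPM and 1848 to 2984 CPM, so that epithelial keratins of the labelled carcinoma were present in all 8 tumors. Mature neutrophil markers (5 genes, 4 tested, S100a9 the most abundant, 0 called) summed to 184, 49.7, 62.3 and 89.8 CPM in saline tumors 1 to 4 and 18.0, 27.6, 28.5 and 45.1 CPM in mAb-DXd/IMQ tumors 1 to 4. This sum was mostly S100a8 and S100a9 (60.9 and 113 CPM in saline tumor 1). The groups overlapped for Cxcr2 (-0.74, SE 0.37, edgeR adjusted p = 0.313) and Retnlg (-1.78, SE 0.72, edgeR adjusted p = 0.216). Ly6g, not tested, had 26 counts in the saline and 31 in the treated tumors. S100a8 had a log2 fold change of -1.74 (SE 0.38, edgeR adjusted p = 0.0521) and S100a9 of -1.81 (SE 0.43, edgeR adjusted p = 0.0598), with all 4 treated tumors below every saline tumor (7.1% of tested genes). Both passed without saline tumor 2, at -1.93 for S100a8 (adjusted p = 0.0476, range over its alternatives 0.000141 to 0.153) and -2.06 for S100a9 (adjusted p = 0.0431, range 0.0151 to 0.157). When 1 tumor was left out, the log2 fold change was between -2.12 and -1.35 for S100a8 and between -2.06 and -1.18 for S100a9.

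**Figure D5:**
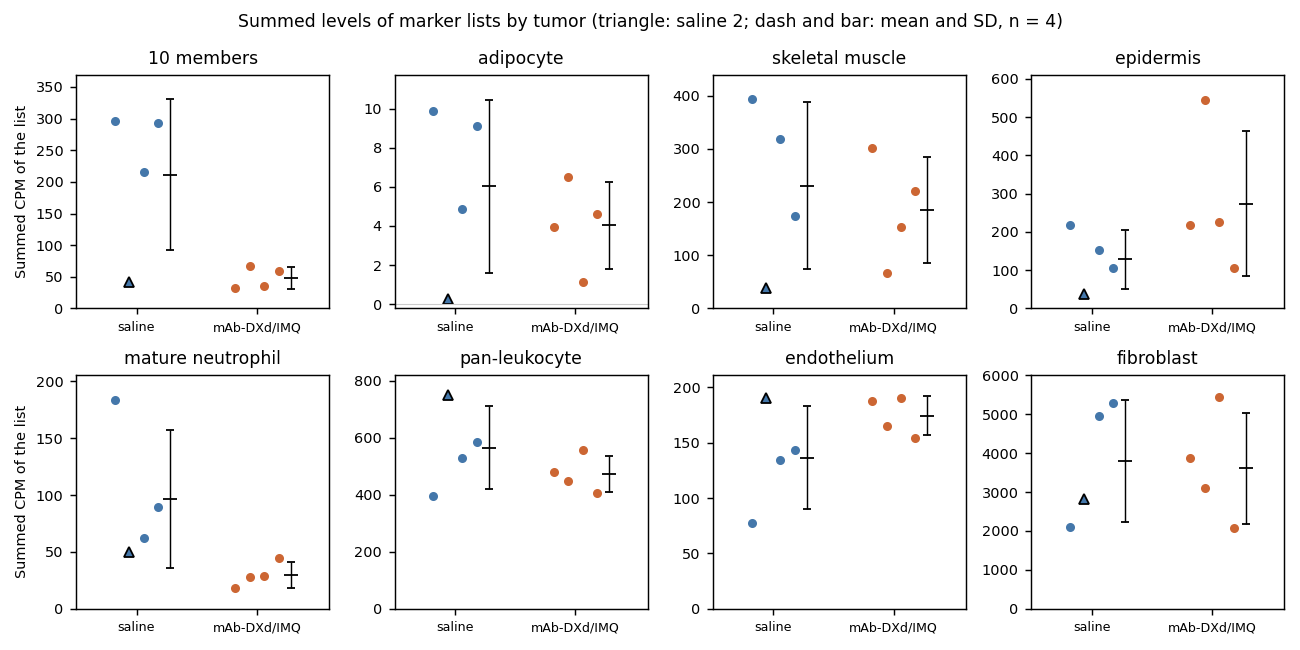
Summed CPM of the 10 genes, with Kit, Mcpt8 and Ctsg included, and of 7 marker lists in each tumor, on linear axes, with the mean and SD of 4 tumors per group. Saline 2 (triangle) is the lowest tumor for the adipocyte, muscle and epidermis lists and the highest for the pan-leukocyte and endothelium lists.

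Members shared with other cell types were read beside the markers of those cells. Beside Ctsg, the neutrophil precursor list (5 genes, 2 tested) had Ctsg itself as its 1 called and its most abundant gene and summed to 0.446, 1.67, 0.699 and 0.146 CPM in saline tumors 1 to 4 and to 1.77, 1.35, 2.03 and 2.11 CPM in mAb-DXd/IMQ tumors 1 to 4. Prtn3, its other tested gene, had 113 counts in the saline tumors, 68 of them in saline tumor 2, and 48 in the treated tumors (log2 fold change -1.09, SE 0.75, edgeR adjusted p = 0.467), and without saline tumor 2 its log2 fold change was 0.0032. Mpo had 9 and 41 counts in the saline and the treated tumors, Elane 4 and 11, and Ms4a3 0 and 4. In mAb-DXd/IMQ tumor 4, which had the most Ctsg, Mpo and Elane were at 0 counts and Ms4a3 had 4. Beside Mcpt8, the basophil list (6 genes, 5 tested, 0 called, Itga2 the most abundant) summed to 112, 50.6, 80.2 and 63.2 CPM and to 95.9, 76.6, 106 and 87.0 CPM. Its member Cd200r3, which mast cells also express, had a log2 fold change of -1.31 (SE 0.57, edgeR adjusted p = 0.242), and -1.63 without saline tumor 2 (adjusted p = 0.135, range 0.135 to 0.564). It was -0.81 without saline tumor 4 (adjusted p = 0.564). Il4 had a log2 fold change of 0.061 (SE 0.27, edgeR adjusted p = 0.934). Itga2 had 0.24 (SE 0.23, edgeR adjusted p = 0.616) and Il3ra 0.13 (SE 0.21, edgeR adjusted p = 0.787). Of the 5 tested genes of the basophil list, 4 thus had positive values, Mcpt8 itself among them, and 1 a negative value, with a median of 0.13. The values of Il4, Il3ra and Itga2 were within about their SE of 0. Prss34, a protease also on this list, had 8 counts in the saline and 0 in the treated tumors and was not tested. The summed level was mostly Itga2 (97.8 CPM in saline tumor 1), so that it says little about Mcpt8 or Prss34. The cell source of Mcpt8 was not tested.

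Beside Kit, melanocyte markers (5 genes, 1 tested, 0 called, Pmel the most abundant) summed to 0.376 to 0.811 CPM over the saline tumors and 0.474 to 2.16 CPM over the treated ones. Tyr was at 0 counts in all 8 tumors, and Dct had 0 in the saline tumors and 23 in the treated tumors, all in mAb-DXd/IMQ tumor 2. Of genes of blood progenitors, Flt3 was at 1.6, 4.72, 1.88 and 3.95 CPM in saline tumors 1 to 4 and at 0.825, 1.37, 2.03 and 1.74 CPM in mAb-DXd/IMQ tumors 1 to 4 (log2 fold change -1.03, SE 0.41, edgeR adjusted p = 0.211), and it was chosen after its values were seen. Flt3, like Kit, was highest in saline tumors 2 and 4, its groups overlapped, and without saline tumor 2 its log2 fold change was -0.74. Cd34 had a log2 fold change of 0.44 (SE 0.31, edgeR adjusted p = 0.486), and 0.72 without saline tumor 2. Markers of mammary luminal progenitors (3 genes, 2 tested, 0 called, Csn3 the most abundant) summed to 0.466 to 1.22 CPM and 1.35 to 4.53 CPM, with Elf5 at 0 counts in the saline tumors and 2 in the treated tumors. Eosinophil markers (5 genes, 3 tested, 0 called, Siglecf the most abundant) summed to at most 1.94 CPM, with 2 counts of Prg2 and 1 of Epx over all 8 tumors. Of the list for ILC2, which also carry Il1rl1 (5 genes, 5 tested, Gata3 the most abundant, between 103 and 141 CPM summed), 1 was called, Klrg1, higher at 1.77 (SE 0.30, edgeR adjusted p = 0.0277). Among all tested genes, 0.546% were called higher. The other 4 genes of this list had negative values, among them Rora at -0.53 (SE 0.20, edgeR adjusted p = 0.181) and Areg at -0.68 (SE 0.31, edgeR adjusted p = 0.263), and the median was -0.33. The groups did not overlap for Rora, as for 7.1% of all tested genes in this direction. Klrg1 was no longer called without saline tumor 2 (adjusted p = 0.0608), 3 (0.0841) or 4 (0.101), nor without mAb-DXd/IMQ tumor 3 (0.0579) or 4 (0.0813), over a range of 7.79e-06 to 0.126. The share of each cell type in the levels of Kit and Il1rl1 was not tested.

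The genes most like the connective tissue mast cell proteases were ranked by Pearson r across the 8 tumors with the mean standardized log2 CPM of Cma1, Mcpt4, Cpa3, Tpsb2 and Tpsab1. The first 3 were Mcpt2 (r = 0.989), Mcpt1 (r = 0.977) and Fcer1a (r = 0.967), and Mrgprb1 (r = 0.958) came after Tbc1d19. The other 6 of the 10 were outside the mast cell lists: Tbc1d19 (r = 0.965), Vps13a (0.958), Nbea (0.956), Gm8508 (0.955), Sox9 (0.948) and Cdk5 (0.943). After the group means were removed, r was 0.983 for Mcpt2, 0.955 for Mcpt1, 0.941 for Fcer1a and 0.921 for Mrgprb1, and between 0.892 and 0.940 for the other 6. Of these 10 genes, 1 was also among the 10 with the highest r after the group means were removed. The points are 3 tumors with high and 5 with lower protease levels. Among the 5, the mean standardized level was -0.039 and -0.25 in mAb-DXd/IMQ tumors 2 and 4. It was -0.99 and -1.25 in mAb-DXd/IMQ tumors 1 and 3 and -0.77 in saline tumor 2. The value of r mostly reads how these few tumors divide, and it is given without p. Of the 10 genes, 0 were called by edgeR's test with all 8 tumors, and the 6 outside the lists had log2 fold changes between -0.73 and -0.19, against -2.39 to -2.90 for the 4 mast cell genes.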

How the data were processed

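The counts per gene were raw counts as deposited by the authors, whose processing notes name HISAT2, HISAT, TopHat2 and mm39 without roles or versions. The counting program and strandedness are not given. Of 54409 gene IDs matched to GENCODE M21, 98.3% had its GRCm38 coordinates, which are used here. Genes were filtered with filterByExpr (minimum count 10, minimum total 15), scaled with TMM and tested in edgeR 4.0.16 by the quasi-likelihood F-test, with Benjamini-Hochberg adjustment over all 18511 genes tested. A gene was called at FDR under 0.05 and absolute log2 fold change above 0.58. The SE is the absolute log2 fold change divided by the square root of F. The genes named are the 10 members, the genes of the fixed lists and locus that passed the test or are described by role, and the 10 genes most like the proteases; others were chosen after their values were seen. The members and lists were chosen with earlier results of these data known. The steps were tested on simulated data.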

Additional observations from a re-analysis of the deposited data

Results flagged for a closer look

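In a group of 4 tumors, a tumor stood apart where its gap to the nearest other tumor, divided by the whole range of log2 CPM, was above the 95% critical value of Dixon for 4 samples. Of 124 groups examined, 10 met this, where chance gives about 1 in 20 groups (6.2), and 7 of the 10 were saline tumor 2. Saline tumor 2 was low for Cma1 (0.899), Mcpt4 (0.864), Tpsb2 (0.874), Tpsab1 (0.839) and Mcpt2 (0.937), and for the summed level of the 10 mast cell genes (0.837) and of the other mast cell proteases (0.877). These groups share genes and are not independent. In mAb-DXd/IMQ tumors, tumor 1 was low for Runx1 (0.883), and tumor 3 was high for Syk (0.960) and Ptprc (0.887).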

How the results depend on the processing

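Of all genes, 358 were called with no filter, 787 with DESeq2, 122 with gene length offsets, 14 with a replicate block, 14 with both, and 10 to 203 when 1 tumor was left out. Of the 10 members, 6 were called with no filter, 1 with a CPM of at least 1 in 4 tumors, 6 with DESeq2, 1 with limma-voom, 1 with robust dispersion, 0 with the replicate block, 0 with the block and length offsets, and 0 to 6 when 1 tumor was left out. Of the mast cell pathway genes, 5 were called with no filter, 8 with DESeq2, 0 with each of limma-voom, robust dispersion, length offsets, the replicate block and the block with length offsets, and 0 to 5 when 1 tumor was left out. The cause was not tested. The median r of the genes most like the proteases was 0.923 with group means removed. Il33 reversed with length offsets (-0.0499), and when 1 tumor was left out it was between -0.17 and 0.83. Fcer1g was between -0.23 and 0.075 when 1 tumor was left out, and reversed without saline tumor 2. The alternatives for the fold changes of the other named genes and for the chromosome 14 count were added after seeing the data. The CPM filter gave no value for Ctsg, Ms4a2, Cma2, Mrgprb1 and Mrgprb2.

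Tumors of the 2 groups share only a number. The deviations of same-numbered tumors correlated at -0.17, -0.055, 0.079 and -0.067, and only saline tumor 3 correlated best with its own number. With the replicate block, log2 fold changes were -2.79 for Cpa3 (adjusted p = 0.138, range over its alternatives 0.00182 to 0.143) and 3.99 for Ctsg (adjusted p = 0.0951, range 5.3e-07 to 0.119).

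With 4 tumors per group, the calls of Cpa3 and Ctsg depend on single tumors. Floors of 3 counts, 0.0439 to 0.0843 CPM, limit Ctsg and Ms4a2 and cover counting error only.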
